A study of Mus musculus with 30 samples.

Results

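The 10 genes described here are Atf4, the transcription factor of the integrated stress response, and genes of serine synthesis, mitochondrial one-carbon metabolism, amino acid supply and stress feedback: Phgdh, Psat1, Shmt2, Mthfd2, Aldh1l2, Asns, Slc38a3, Trib3 and Chac1. They were named by symbol and matched to Ensembl IDs, and they are 10 of the 55416 gene IDs of the count table. Aldh1l2 and Slc38a3 were chosen for their measured change at 14 days post fracture (dpf), so their values at that time are given as a description, with no test. All members were chosen with earlier results of these data known. Bulk RNA was sequenced from closed, non-stabilized fractures of the left tibia in 30 mice that were 7 to 12 weeks old. The paper describes tissue dissected around the fracture site at 3-dpf and whole callus at 6-dpf. Changes from 3- to 6-dpf therefore also cross these descriptions of the tissue. P-Apex1KO mice carry Prrx1-Cre and 2 floxed Apex1 alleles (Prrx1-Cre;Apex1 C/C), and Cre is active in limb bud mesenchyme and its descendants, so cells of other origin in the callus, such as blood cells, are not targeted. The WT group holds littermates without the Cre and also Prrx1-Cre mice with a single floxed allele, so controls can lack 1 copy of the gene in the same cells. The groups were 4 WT and 4 P-Apex1KO mice at 3-dpf, 5 and 3 at 6-dpf, 4 and 3 at 10-dpf, and 4 and 3 at 14-dpf, with both sexes in each group except the P-Apex1KO group at 14-dpf, whose 3 mice were all female. At 14-dpf the WT group had a single female, replicate 1, so the fits with sex compare the genotypes there through that mouse.

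When eIF2 is phosphorylated by one of its stress kinases, most translation slows while the Atf4 message is translated more, so the level of Atf4 mRNA is not the level of the protein. ATF4 then raises genes that make, import and load amino acids, and in bone it is known for its part in osteoblast differentiation and collagen synthesis. Serine made by PHGDH and PSAT1 gives a one-carbon unit to folate through SHMT2 in mitochondria, MTHFD2 oxidizes that unit, and ALDH1L2 releases it as carbon dioxide with a gain of NADPH.

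ATF4 binds DNA as a dimer with C/EBP proteins, at a composite element that was searched here as TGATGNAA on both strands. RefSeq promoter windows on GRCm38.p6, from 250 bases before to 50 bases after a gene's start, matched 8 of the 10 genes in 9 windows. Aldh1l2 and Slc38a3 had no entry. The letters occurred in 3 of the 9 windows, those of Asns, Chac1 and Trib3, against 1304 of all 32851 windows (3.97%). Those 3 are shown because they are the stress-induced members whose windows hold the element, with the match in capitals, each 5′ to 3′ on the gene's own strand. Of the Asns and Chac1 windows the 250 bases before the start are printed, and of the Trib3 window also the 30 bases after it. The Asns stretch is chr6:7693210-7693459 on the minus strand, the Chac1 stretch chr2:119350992-119351241 on the plus strand, and the Trib3 stretch chr2:152344031-152344310 on the minus strand.
Asns: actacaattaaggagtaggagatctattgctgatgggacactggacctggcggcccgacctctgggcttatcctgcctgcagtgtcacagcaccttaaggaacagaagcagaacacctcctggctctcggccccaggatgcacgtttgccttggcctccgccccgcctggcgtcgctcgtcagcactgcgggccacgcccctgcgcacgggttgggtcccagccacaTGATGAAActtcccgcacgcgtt
Chac1: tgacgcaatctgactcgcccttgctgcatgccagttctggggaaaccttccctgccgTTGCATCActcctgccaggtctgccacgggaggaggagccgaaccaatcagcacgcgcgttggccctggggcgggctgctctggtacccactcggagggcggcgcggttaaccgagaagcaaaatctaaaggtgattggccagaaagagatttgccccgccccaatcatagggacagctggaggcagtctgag
Trib3: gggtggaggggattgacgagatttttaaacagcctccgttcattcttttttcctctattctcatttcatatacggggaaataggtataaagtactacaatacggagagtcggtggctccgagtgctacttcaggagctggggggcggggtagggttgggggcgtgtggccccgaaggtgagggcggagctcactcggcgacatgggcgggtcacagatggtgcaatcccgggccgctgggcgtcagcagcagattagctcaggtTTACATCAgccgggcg
In Asns the element read TGATGAAA on the gene's strand, from -23 to -16 relative to the start. In Chac1 and Trib3 it lay on the opposite strand, so the capitals show its reverse complement: TGATGCAA from -193 to -186 in Chac1, and TGATGTAA from 15 to 22 bases past the start in Trib3. No match in the windows of Atf4, Phgdh, Psat1, Shmt2 and Mthfd2 says only that these letters are not there. Of the other ATF4 target and stress response genes listed for this work, 6 of 16 with a window held the element, beside 1219 of all 27025 genes with a window.

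Libraries held 18334389 to 43111491 counts on genes. Levels are given as CPM (counts scaled to a common library total) after normalization by the trimmed mean of M values (TMM) over all 30 libraries. All 10 genes passed the filter on low counts at every time point, and their raw counts per library were lowest for Slc38a3, from 11 to 1161, and Trib3, from 32 to 414, so that counting error is largest for those genes. Fold changes compare P-Apex1KO with WT mice of the same day with sex in the model, by edgeR's quasi-likelihood test, and a gene was called where the p adjusted over all genes (Benjamini-Hochberg) was under 0.05. Apex1, the deleted gene, had a mean of 30.3 CPM in WT and 27.4 in P-Apex1KO mice at 3-dpf, where the groups overlapped. It was 24.2 and 15.4 CPM at 6-dpf, a log2 fold change of -0.67 ± 0.11 (SE, adjusted p = 0.0071), and 23.7 and 15.5 CPM at 10-dpf, -0.65 ± 0.13 (adjusted p = 0.0278). At 14-dpf it was 24.0 and 16.0 CPM with no overlap, but the change of -0.29 ± 0.19 was not called (adjusted p = 0.367). That fit with sex compares the genotypes through the single WT female, at 19.8 CPM, the lowest of the WT mice of that day. In whole callus, fewer cells of a type and less RNA per cell cannot be told apart.

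At 6-dpf, 7 of the 10 members were called lower in P-Apex1KO callus and none higher: Atf4, the serine synthesis gene Psat1, the mitochondrial folate genes Shmt2, Mthfd2 and Aldh1l2, the glutamine transporter gene Slc38a3 and the pseudokinase gene Trib3. Over all 20260 genes tested, 5.61% were called lower. In 8 members, those 7 and Phgdh, every P-Apex1KO mouse was below every WT mouse, which held for 11.9% of all genes. The median log2 fold change was -0.47 over the members and 0.01 over all genes.

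At 3-dpf none of the 10 was called, nor was any other of 19866 genes (0%), by edgeR. Unadjusted p-values under 0.05 were found for 1216 genes, 2 of them members, Psat1 and Slc38a3. DESeq2 called 85 genes and no member. At 10-dpf only Aldh1l2 of the 10 was called, lower, against 3.44% of all genes called lower. At 14-dpf Psat1 was called lower, 1 of the 8 members not chosen on that contrast, against 7.04% of all genes.

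**Figure D1:**
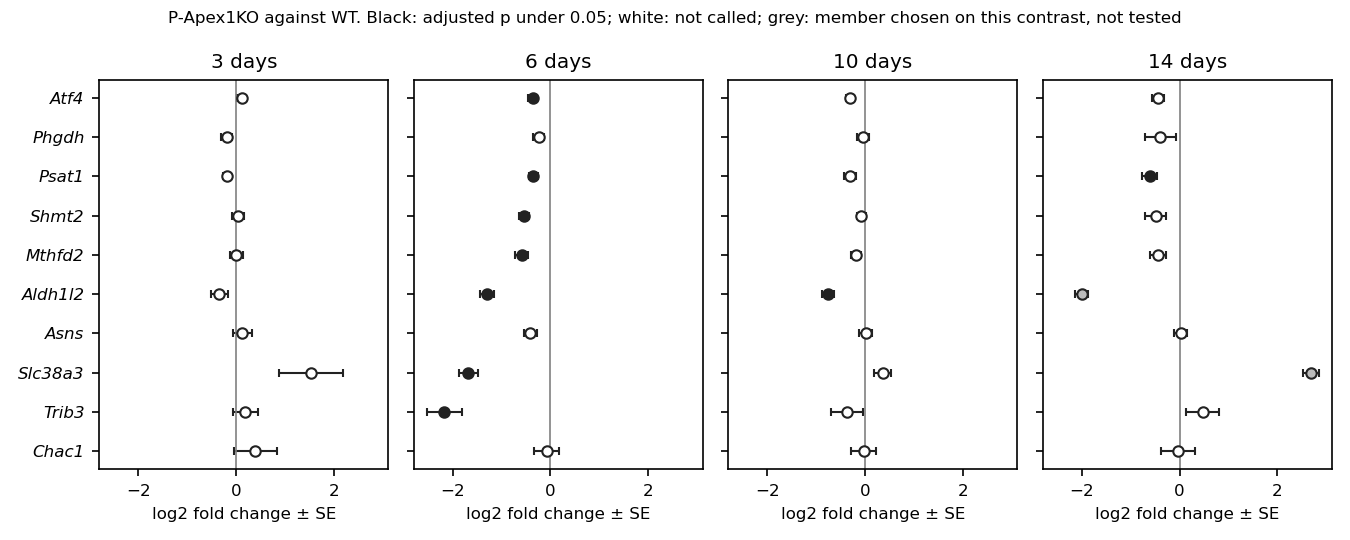
Log2 fold change of P-Apex1KO over WT (x axis) with its standard error for each of the 10 genes (y axis) at 3, 6, 10 and 14 days post fracture. Black points were called, white points were not, and grey points are the values on which Aldh1l2 and Slc38a3 were chosen. At 6 days 7 points are black and all 10 lie below 0, while at 3 days no point is black.

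Atf4 (ENSMUSG00000042406; GRCm39 chromosome 15, 80139372 to 80141745, plus strand) encodes the factor itself. At 3-dpf its level was 134, 131, 125 and 137 CPM in the 4 WT mice and 131, 171, 136 and 145 in the 4 P-Apex1KO mice. The groups overlapped, and the log2 fold change was 0.12 ± 0.09 (adjusted p = 0.879). At 6-dpf the 5 WT mice held 176, 174, 165, 189 and 188 CPM and the 3 P-Apex1KO mice 142, 129 and 138. The groups were apart, at -0.36 ± 0.09 (adjusted p = 0.0275). At 10-dpf the values were 191, 165, 190 and 187 CPM in WT and 138, 160 and 149 in P-Apex1KO mice, and at 14-dpf 191, 211, 211 and 204 CPM in WT and 128, 137 and 149 in P-Apex1KO mice. The groups did not overlap on either day, yet neither change passed the threshold: -0.31 ± 0.08 (adjusted p = 0.0627) and -0.44 ± 0.12 (adjusted p = 0.0519). Non-overlap in this direction held for 10.5% of all genes at 10-dpf and 23.4% at 14-dpf. In order, the group means were 132 CPM in WT at 3-dpf, 137 and 138 in P-Apex1KO mice at 6- and 14-dpf, 146 and 149 in P-Apex1KO mice at 3- and 10-dpf, and then 179, 183 and 204 in WT mice at 6-, 10- and 14-dpf. Neighbouring means among the lowest 5 were no farther apart than the larger of their SDs (5.16 to 17.6 CPM), as were the WT means of 179 ± 10.3 and 183 ± 12.4 CPM. From 3- to 6-dpf Atf4 rose in WT mice by 0.41 ± 0.08 on the log2 scale (adjusted p = 0.000721), one of 4 members called higher there, where 15.4% of all genes were. The KO-WT difference became more negative by 0.49 ± 0.11 over that interval (adjusted p = 0.0454), a call shared by 0.987% of all genes. Without single mice the call at 6-dpf was lost for 5 of 8 (P-Apex1KO replicates 1 and 2, and WT replicates 2, 4 and 5), with adjusted p up to 0.0913, and that of the difference was kept only without P-Apex1KO replicate 1 of 3-dpf or WT replicate 3 of 6-dpf.

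Aldh1l2 (ENSMUSG00000020256; GRCm39 chromosome 10, 83323314 to 83370005, minus strand), the last step of mitochondrial one-carbon oxidation, was the member with a call at both 6- and 10-dpf, days other than the 14-dpf named for its choice. At 3-dpf it ranged from 67.6 to 94.1 CPM in WT and from 48.2 to 80.1 CPM in P-Apex1KO mice, and the change of -0.34 ± 0.18 was not called (adjusted p = 0.852). At 6-dpf it was 100, 93.0, 87.4, 111 and 108 CPM in WT and 43.1, 45.4 and 30.5 CPM in P-Apex1KO mice. All P-Apex1KO values were well under the lowest WT value, with a log2 fold change of -1.30 ± 0.14, a ratio of 0.407 (adjusted p = 0.00128). At 10-dpf the WT mice held 130, 114, 87.2 and 108 CPM and the P-Apex1KO mice 61.2, 69.3 and 57.9. The groups were again apart, by -0.76 ± 0.12 (adjusted p = 0.0173). That call was lost without P-Apex1KO replicate 1 (adjusted p = 0.117), WT replicate 1 (adjusted p = 0.0612) or WT replicate 2 (adjusted p = 0.0563). At 14-dpf, the values on which the gene was chosen were 158, 160, 147 and 149 CPM in WT and 44.0, 34.3 and 38.0 CPM in P-Apex1KO mice, a fitted log2 fold change of -2.0. In order, the group means were 38.8 ± 4.90 and 39.7 ± 8.02 CPM (SD) in P-Apex1KO mice at 14- and 6-dpf, which did not differ beyond their spread, 62.8 ± 5.86 and 64.3 ± 13.3 in P-Apex1KO mice at 10- and 3-dpf, likewise close, then 80.9 ± 15.1, 100 ± 9.97, 110 ± 17.6 and 154 ± 6.21 in WT mice at 3-, 6-, 10- and 14-dpf, of which the means at 6- and 10-dpf lay within their spread. The change of the KO-WT difference from 3- to 6-dpf was -0.96 ± 0.24 and not called (adjusted p = 0.0681).

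**Figure D2:**
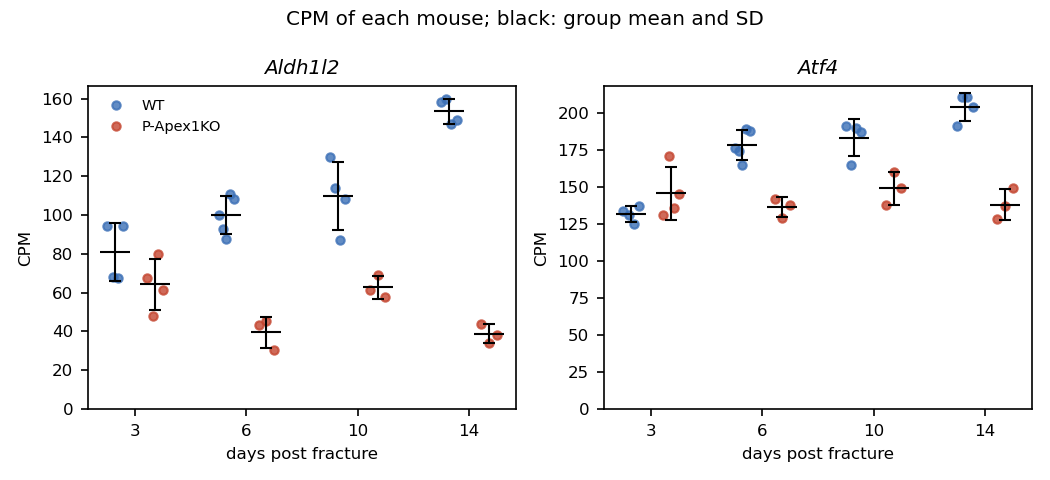
CPM of Aldh1l2 and Atf4 (y axis, from 0) in each mouse by days post fracture (x axis), WT in blue and P-Apex1KO in red. The black marks are group means with their SD. From 6 days on the P-Apex1KO mice lie below all WT mice of the same day for both genes, and the WT means end at 154 and 204 CPM.

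Slc38a3 (ENSMUSG00000010064; GRCm39 chromosome 9, 107527815 to 107547018, minus strand) encodes a sodium-coupled transporter of glutamine, histidine and asparagine. Apart from 14-dpf, the day named for its choice, only its lower level at 6-dpf was called. At 3-dpf it was barely expressed, at 1.43, 1.10, 0.941 and 0.323 CPM in WT and 5.59, 1.56, 2.78 and 0.919 CPM in P-Apex1KO mice. The groups overlapped, and the log2 fold change of 1.54 ± 0.66 did not pass (adjusted p = 0.812). At 6-dpf the WT mice held 17.8, 27.0, 22.6, 19.2 and 27.2 CPM and the P-Apex1KO mice 6.32, 8.54 and 6.59 CPM. P-Apex1KO values were lower without overlap, by -1.68 ± 0.19, a ratio of 0.313 (adjusted p = 0.00136). At 10-dpf the WT mice held 30.4, 28.1, 51.7 and 31.6 CPM and the P-Apex1KO mice 45.7, 47.5 and 44.6 CPM. Here 1 WT mouse was above all P-Apex1KO mice and the other 3 below, at 0.36 ± 0.18 (adjusted p = 0.282). Without that mouse, WT replicate 3, the gene was called higher in P-Apex1KO mice, by 0.61 (adjusted p = 0.00875). At 14-dpf the values used for the choice were 5.89, 11.4, 12.1 and 10.7 CPM in WT and 38.5, 37.0 and 36.2 CPM in P-Apex1KO mice, a fitted log2 fold change of 2.69. That fit with sex compares the genotypes through the single WT female, at 5.89 CPM. With all mice kept, the other processing settings gave 1.93 to 2.96. In WT mice the level rose 23.2-fold from 3- to 6-dpf (log2 4.53 ± 0.50, adjusted p = 1.64e-05). The KO-WT difference changed by -3.14 ± 0.67 from 3- to 6-dpf (adjusted p = 0.0375). That call was lost without any of 11 of the 16 mice, and kept without replicate 1, 2 or 4 of the P-Apex1KO mice at 3-dpf or replicate 1 of the WT mice at either day. In order, the means were 0.949 ± 0.465 and 2.71 ± 2.07 CPM (SD) at 3-dpf in WT and P-Apex1KO, 7.15 ± 1.21 in P-Apex1KO at 6-dpf, 10.0 ± 2.82 in WT at 14-dpf, 22.8 ± 4.34 in WT at 6-dpf, 35.4 ± 10.9 in WT at 10-dpf, 37.3 ± 1.17 in P-Apex1KO at 14-dpf and 46.0 ± 1.48 in P-Apex1KO at 10-dpf. The pair at 3-dpf, and the WT mean at 10-dpf beside the P-Apex1KO mean at 14-dpf, did not differ beyond their spread.

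Markers of several cell types differed between the genotypes on the same days. The summed level of 7 chondrocyte markers (Col2a1, Acan, Sox9, Col9a1, Matn1, Cnmd and Hapln1) was 26500 to 48700 CPM in WT and 1850 to 3420 CPM in P-Apex1KO mice at 6-dpf, with all 7 called lower. At 10-dpf it was 13400 to 37100 CPM in WT and 8210 to 14900 CPM in P-Apex1KO mice, with none called. At 14-dpf it was 786 to 5060 CPM in WT and 3460 to 4040 CPM in P-Apex1KO mice. These sums overlapped, with medians of 3590 CPM in WT and 3750 CPM in P-Apex1KO mice. With sex in the model all 7 were called higher at 14-dpf, with a median log2 fold change of 3.15. That fit compares the genotypes through the single WT female of that day. The 7 osteoblast markers summed to 38200 to 53600 CPM in WT and 17700 to 27800 CPM in P-Apex1KO mice at 6-dpf (6 called lower), to 41600 to 59800 and 18000 to 27300 CPM at 10-dpf (5 called lower), and to 70600 to 96300 and 17500 to 19000 CPM at 14-dpf (4 called lower). The 8 skeletal muscle markers summed to 3160 to 5840 CPM in WT and 7720 to 17000 CPM in P-Apex1KO mice at 6-dpf, all 8 called higher. The 4 hypertrophic chondrocyte markers summed to 3270 to 5700 CPM in WT and 622 to 1010 CPM in P-Apex1KO mice at 6-dpf (3 called lower), and the 5 macrophage markers to 457 to 621 and 833 to 959 CPM (4 called higher). The 6 osteoclast markers summed to 1780 to 4440 CPM in WT and 817 to 1200 CPM in P-Apex1KO mice at 10-dpf (4 called lower), and to 7480 to 8590 and 1050 to 1960 CPM at 14-dpf (all 6 called lower). The part of these cell types in the members' changes was not tested, and no marker of these 6 lists was at 0 in every mouse of a group.

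Trib3 (ENSMUSG00000032715; GRCm39 chromosome 2, 152179337 to 152191958, minus strand) encodes a pseudokinase that is induced by ATF4 and restrains it. It was expressed above a few CPM mainly in WT callus at 6-dpf. The 5 WT mice of that day held 10.1, 6.35, 10.0, 10.6 and 15.2 CPM and the 3 P-Apex1KO mice 1.88, 1.19 and 3.28 CPM. Every P-Apex1KO mouse was below every WT mouse, by -2.17 ± 0.36 on the log2 scale, a ratio of 0.222 (adjusted p = 0.00729). At 3-dpf WT and P-Apex1KO means were 1.91 ± 0.304 and 2.20 ± 0.571 CPM (SD), at 10-dpf 3.19 ± 1.85 and 2.54 ± 0.200, and at 14-dpf 1.71 ± 0.221 and 2.11 ± 0.251. On none of those 3 days was the difference called. In WT mice the level rose 5.25-fold from 3- to 6-dpf (log2 2.39 ± 0.30, adjusted p = 3.16e-05), and the KO-WT difference changed by -2.44 ± 0.45 (adjusted p = 0.015). Both calls held without any single mouse. From 10- to 14-dpf Trib3 fell in WT mice by 0.99 ± 0.27 on the log2 scale (adjusted p = 0.0302), the only one of the 8 members called lower, where 4.92% of all genes were. Without WT replicate 3 of 10-dpf, at 5.92 CPM against 1.78 to 2.65 in the other 3, the change was -0.52 and not called (adjusted p = 0.167). It was also not called without WT replicate 2 of 10-dpf or WT replicates 2, 3 or 4 of 14-dpf, nor with sex left out (adjusted p = 0.0787).

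**Figure D3:**
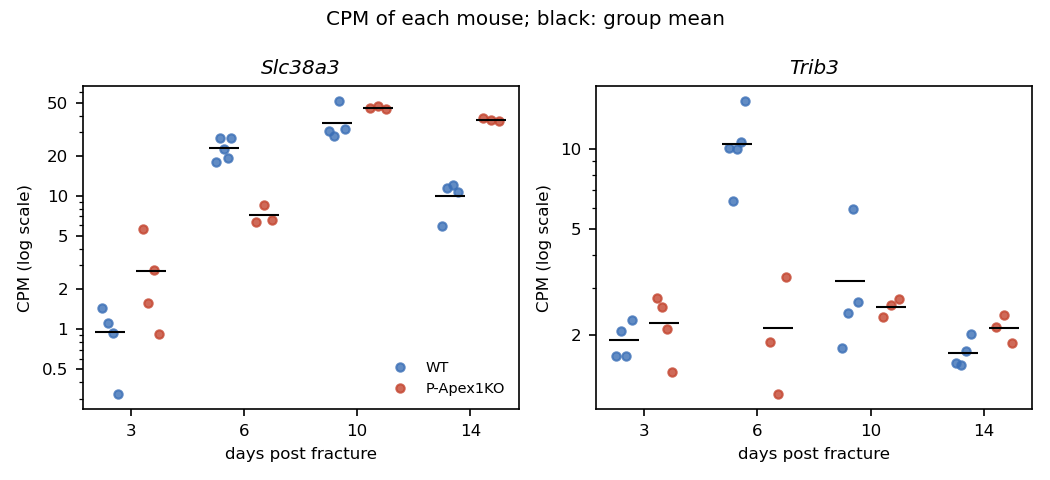
CPM of Slc38a3 and Trib3 on a log axis (y) in each mouse by days post fracture (x axis), WT in blue and P-Apex1KO in red, with group means as black lines. For Slc38a3 the red points are below the blue at 6 days and above them at 14 days, the values on which it was chosen. For Trib3 the WT mice at 6 days, at 6.35 to 15.2 CPM, stand above the other groups.

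Serine synthesis enters through PHGDH and PSAT1. Phgdh (ENSMUSG00000053398), the oxidation of 3-phosphoglycerate, ranged from 11.1 to 27.0 CPM over all mice and was called at no time. At 6-dpf it was 20.7 to 27.0 CPM in WT and 19.5 to 20.5 CPM in P-Apex1KO mice, apart by -0.24 ± 0.11 but not called (adjusted p = 0.182). Psat1 (ENSMUSG00000024640), the transamination that follows, was called lower at 6- and 14-dpf. At 6-dpf its level was 46.9, 43.3, 46.8, 52.6 and 54.2 CPM in WT and 40.3, 35.3 and 35.5 CPM in P-Apex1KO mice. The groups were apart by -0.35 ± 0.09 (adjusted p = 0.0397), a call that held only without WT replicate 1 among the single mice left out. At 14-dpf it was 45.1, 48.0, 48.3 and 47.8 CPM in WT and 27.9, 33.4 and 25.9 CPM in P-Apex1KO mice, -0.61 ± 0.15 (adjusted p = 0.042). The WT mice were close together and all P-Apex1KO mice below them. That call held only without P-Apex1KO replicate 2, and adjusted p reached 0.098 without WT replicate 2. In WT mice Psat1 fell by 0.61 ± 0.08 on the log2 scale from 3- to 6-dpf (adjusted p = 2.5e-05), the only member called lower over that interval, where 15.1% of all genes were.

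The mitochondrial folate genes upstream of Aldh1l2 differed at 6-dpf. Shmt2 (ENSMUSG00000025403), which takes the one-carbon unit from serine, was 61.2, 71.8, 60.9, 85.2 and 73.8 CPM in WT and 48.2, 48.8 and 50.5 CPM in P-Apex1KO mice. The 3 P-Apex1KO values were close together and under all WT values, at -0.54 ± 0.10 (adjusted p = 0.00942), and the call held without any single mouse. Mthfd2 (ENSMUSG00000005667), which oxidizes methylene-tetrahydrofolate, was 37.2, 40.8, 37.1, 49.6 and 46.9 CPM in WT and 30.1, 23.4 and 29.7 CPM in P-Apex1KO mice. The groups were apart by -0.59 ± 0.13 (adjusted p = 0.0208), a call lost without WT replicate 2 (adjusted p = 0.0554) or WT replicate 4 (adjusted p = 0.0717). Without either of those mice 4 members were called at 6-dpf: Aldh1l2, Slc38a3, Shmt2 and Trib3, which held without each of the 8 mice. At 10-dpf Shmt2 and Mthfd2 overlapped between genotypes. At 14-dpf Shmt2 was 41.6 to 44.8 CPM in WT and 25.2 to 38.0 CPM in P-Apex1KO mice, and Mthfd2 33.0 to 36.1 and 21.2 to 27.9 CPM. Both genes were without overlap, as were Atf4 and Psat1, 4 of the 8 members beside 23.4% of all genes. Shmt2 and Mthfd2 were not called (adjusted p = 0.178 and 0.145).

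Asns (ENSMUSG00000029752), asparagine synthetase, and Chac1 (ENSMUSG00000027313), which degrades glutathione, were called at no time point. Asns was 32.9 to 48.0 CPM in WT and 25.9 to 34.7 CPM in P-Apex1KO mice at 6-dpf, overlapping, with -0.41 ± 0.14 (adjusted p = 0.0993). Its other 3 changes were between 0.01 and 0.13. Chac1 was 9.76 to 20.8 CPM in WT and 9.60 to 18 CPM in P-Apex1KO mice at 6-dpf, with -0.08 ± 0.25 (adjusted p = 0.89). Of the 3 members whose windows hold the searched element, Trib3 was called at 6-dpf and Asns and Chac1 were not. Of those whose windows lack it, Atf4, Psat1, Shmt2 and Mthfd2 were called and Phgdh was not. A link between the element and the calls was not tested. Chac1 rose in WT mice from a mean of 6.98 ± 1.21 to 16.1 ± 4.52 CPM (SD) between 3- and 6-dpf, by 1.18 ± 0.36 on the log2 scale (adjusted p = 0.0223), a call lost without WT replicate 3 or 4 of 3-dpf (adjusted p = 0.0632 and 0.0628). The members called over that interval in WT were thus Atf4, Slc38a3, Trib3 and Chac1, higher, and Psat1, lower.

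**Figure D4:**
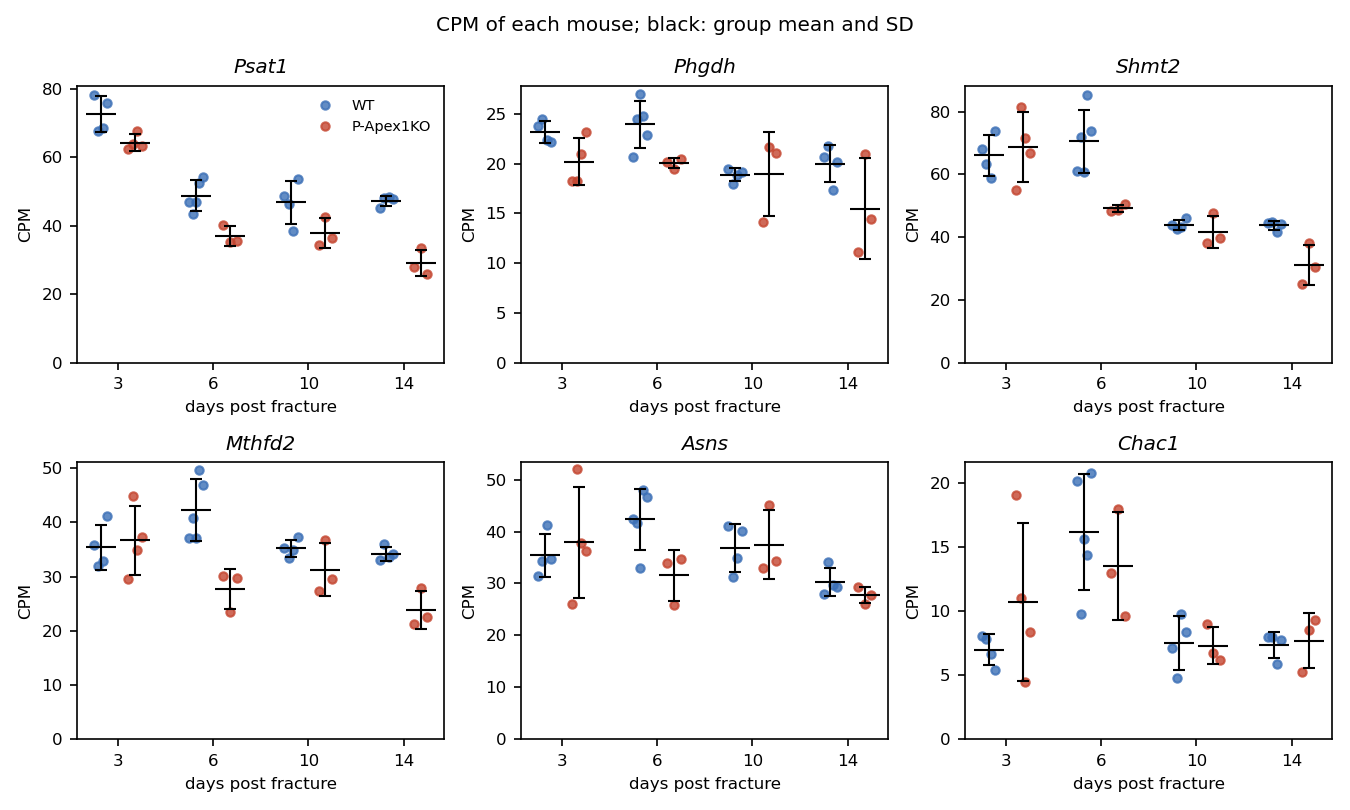
CPM of Psat1, Phgdh, Shmt2, Mthfd2, Asns and Chac1 (y axes, from 0) in each mouse by days post fracture (x axis), WT in blue and P-Apex1KO in red. The black marks are group means with their SD. Shmt2 and Mthfd2 show the 3 P-Apex1KO mice under all WT mice at 6 and 14 days, and Chac1 overlaps on every day.

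Exon length was the union of all annotated exons of a gene, from 2374 bases in Atf4 to 11709 in Asns, so an order per kilobase depends on the annotation. By CPM alone in WT callus at 6-dpf, Atf4 was highest at 179, then Aldh1l2 at 100 and Shmt2 at 70.6, and Trib3 was lowest at 10.4. Per kilobase of exon, Atf4 had the highest mean of the members in WT callus at 6-dpf, at 75.2 ± 4.32 CPM per kb (SD). Shmt2 followed at 17.2 ± 2.46, then Aldh1l2 at 13.3 ± 1.33 and Mthfd2 at 11.6 ± 1.56, the last pair less than the sum of their SDs apart, and Slc38a3 had the lowest mean, 2.47 ± 0.47, which was less than the sum of the SDs under that of Trib3 (3.08 ± 0.93). At 14-dpf in WT mice Aldh1l2 stood second, at 20.5 ± 0.827 CPM per kb.

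From 10- to 14-dpf a change of the KO-WT difference was called by edgeR in none of the 8 members tested, where 0.436% of all genes were called. Of these 8 members 1 (Trib3) had an unadjusted p under 0.05, and DESeq2 called none. Trib3 had 1.09 ± 0.45 (adjusted p = 0.316). The corresponding values of the 2 genes chosen at 14-dpf were -1.30 for Aldh1l2 and 1.95 for Slc38a3, given with no test. Each comparison of days rests on separate mice, and 6-dpf was not tested against 10-dpf, because the sample names follow different schemes before and after. The ordered group means of Atf4, Aldh1l2 and Slc38a3 and the nearest profiles span both schemes, as descriptions with no test. In them, day and naming scheme cannot be told apart.

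The genes around these members were described from 7 lists. Over all genes 5.61% were called lower and 5.31% higher at 6-dpf. On that day 3 of 18 other ATF4 target and stress response genes were called lower and 1 higher. Adm2, a peptide hormone gene, was 5.58 ± 1.58 CPM (SD) in WT and 0.175 ± 0.027 CPM in P-Apex1KO mice, -4.85 ± 0.33 (adjusted p = 0.000271). Stc2, which encodes a secreted glycoprotein, was 11.4 ± 3.50 and 3.47 ± 0.985 CPM, -1.50 ± 0.21 (adjusted p = 0.00369). Pck2, the mitochondrial phosphoenolpyruvate carboxykinase, was 69.8 ± 4.86 and 43.2 ± 4.76 CPM, -0.63 ± 0.08 (adjusted p = 0.0025). Sesn2, a stress-induced inhibitor of mTORC1, was higher, at 22.7 ± 2.71 and 30.5 ± 3.97 CPM, 0.46 ± 0.12 (adjusted p = 0.0435), with overlap between the groups. The list's median was -0.15.

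Of 14 folate genes tested at 6-dpf, 2 were called lower and none higher, with a median of -0.07. Mthfd1l, the mitochondrial step that releases formate, was 47.9 ± 6.25 CPM (SD) in WT and 25.9 ± 1.51 CPM in P-Apex1KO mice, -0.85 ± 0.12 (adjusted p = 0.00282), and Fpgs, which adds glutamates to folate, changed by -0.34 ± 0.09 (adjusted p = 0.0403). Of 16 amino acid transporters 4 were called lower, 3 of which are named here, with adjusted p from 0.0041 to 0.0187. Slc7a3 (-2.16 ± 0.46) was barely expressed, at 1.40 ± 0.55 CPM (SD) in WT and 0.304 ± 0.142 CPM in P-Apex1KO mice. The glutamine transporter gene Slc38a2 was 447 ± 31.5 and 277 ± 16.8 CPM (-0.67 ± 0.10), and the arginine transporter gene Slc7a1 changed by -0.58 ± 0.09. Of 20 cytosolic aminoacyl-tRNA synthetases 4 were called lower, with the largest sizes in Gars1 (-0.54 ± 0.10), Eprs1 (-0.41 ± 0.09) and Cars1 (-0.34 ± 0.07), and the median of the 20 was -0.15. Of 9 other serine and glycine genes 1 was called, Serinc2, higher by 0.66 ± 0.18 (adjusted p = 0.0443), with overlap between the groups. None of 7 eIF2 kinase and phosphatase genes and none of 15 other unfolded protein response genes was called by edgeR, with 3 and 4 of them at an unadjusted p under 0.05 and medians of -0.03 and -0.24, beside 0.01 over all genes.

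At 10-dpf the lists held few calls, and over all genes 3.44% were called lower and 3.01% higher. Among the ATF4 targets Jdp2, a bZIP repressor gene (-0.78 ± 0.17), Vldlr, a lipoprotein receptor gene (-0.49 ± 0.10), and Pck2 (-0.48 ± 0.10) were lower. The groups overlapped for Vldlr. Serinc2 (0.99 ± 0.22) and the cytosolic counterpart of Aldh1l2, Aldh1l1 (0.62 ± 0.15), were higher, at 4.43 ± 0.534 CPM (SD) in WT and 6.84 ± 0.246 CPM in P-Apex1KO mice for Aldh1l1. No gene of the other 4 lists was called at 10-dpf. At 14-dpf the ATF4 targets were split, with 4 lower and 2 higher of 16, beside 7.04% of all genes lower and 4.28% higher. Jdp2 was 116 ± 7.09 and 37.8 ± 6.31 CPM (-1.56 ± 0.16, adjusted p = 0.00143), Vldlr changed by -1.28 ± 0.18 and Pck2 by -1.03 ± 0.15. Ppp1r15a, the inducible eIF2 phosphatase subunit, was higher, at 36.6 ± 1.25 and 57.2 ± 2.99 CPM (0.72 ± 0.12, adjusted p = 0.0108). Atf3 changed by 1.20 ± 0.27 in the fit with sex, but its groups overlapped, at 8.25 ± 2.46 CPM (SD) in WT and 11.4 ± 1.62 CPM in P-Apex1KO mice. Pck2 was called lower at 6-, 10- and 14-dpf, as no other named list gene was. Among transporters 3 were higher, Slc43a1 (0.76 ± 0.15), Slc38a5 (0.95 ± 0.22), a close relative of Slc38a3, and Slc7a11 (1.08 ± 0.28), the cystine importer gene, and none lower. Among the folate genes the mitochondrial folate carrier gene Slc25a32 (-0.72 ± 0.15) was lower and the thymidylate synthase gene Tyms (0.60 ± 0.13) higher. The groups overlapped for Tyms, at 25.7 ± 4.02 CPM (SD) in WT and 29.6 ± 2.06 CPM in P-Apex1KO mice. Eif2ak1, the heme-regulated eIF2 kinase, was higher by 0.51 ± 0.11 (adjusted p = 0.0221), beside erythroid markers that summed to 728 to 811 CPM in WT and 1670 to 2020 CPM in P-Apex1KO mice, whose part was not tested. Edem1, which helps to clear misfolded glycoproteins, had a change of -0.47 ± 0.11 (adjusted p = 0.0291), and no synthetase or serine gene was called. In 13 of the 20 synthetases every P-Apex1KO mouse was still below every WT mouse, which held for 23.4% of all genes. The median log2 fold change of the 20 was -0.16, beside 0.04 over all genes.

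**Figure D5:**
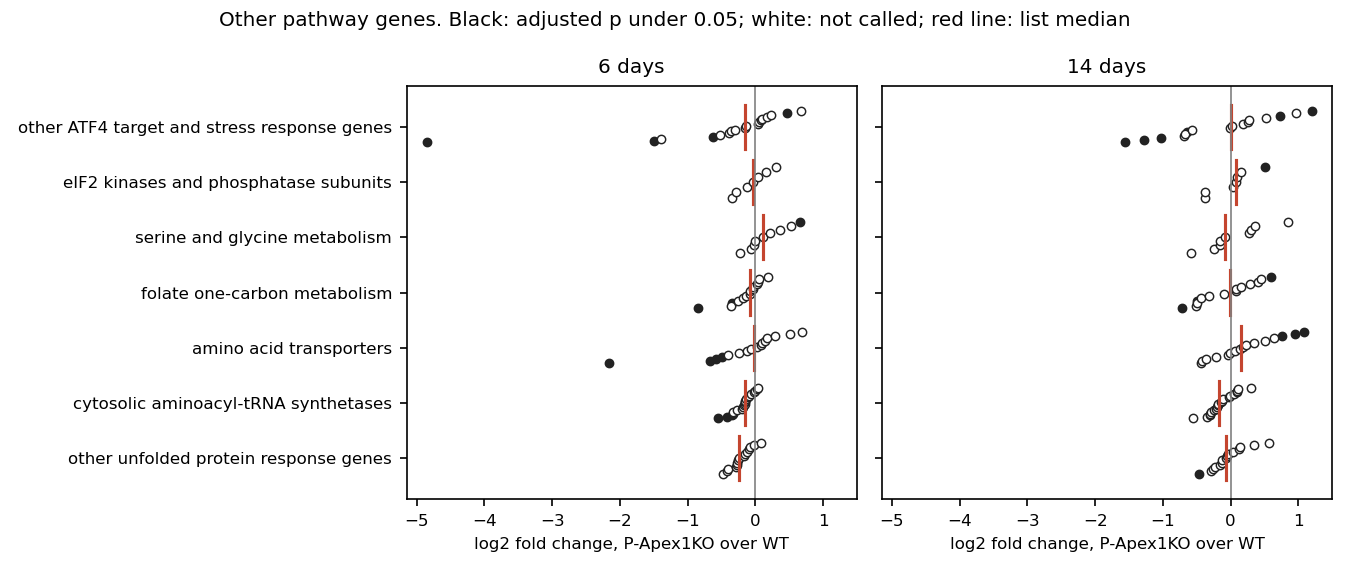
Log2 fold change of P-Apex1KO over WT (x axis) of the genes of 7 pathway lists (y axis) at 6 and 14 days. Black points were called, white points were not, and the red line is the list's median. At 6 days Adm2 stands far to the left at -4.85 and Mthfd1l at -0.85, and at 14 days calls lie on both sides of 0.

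The genes whose pattern over the 8 group means was most like that of a member were found among 13796 other protein-coding genes, by the root mean square difference of centred log2 CPM, as a description with no test. For Aldh1l2 they were Tead2 (0.224), Cdr2l (0.228) and Mex3a (0.233). For Slc38a3 they were Cdsn (0.494), Foxa2 (0.517) and Vtcn1 (0.545), and for Trib3 Espn (0.249), Atg9b (0.297) and Car9 (0.329). For Atf4 they were Yap1 (0.063), 2510009E07Rik (0.067) and Wwc2 (0.07), and for Mthfd2 Gars1 (0.047), Dnajc25 (0.049) and Rpn2 (0.073). Psat1 was closest to Pimreg, Selenoh and Rcc1, Shmt2 to Eef1akmt4, Eif5a and Prelid1, Phgdh to Brat1, Rplp0 and Eef1a1, Asns to Apold1, Cryz and Slc35b4, and Chac1 to Eln, Gpt2 and Gaa. The members were not each other's nearest genes: the member closest to Aldh1l2 was Atf4, at 0.484, with 472 other genes closer, and the closest to Slc38a3 was Trib3, at 1.798, with 2402 closer.

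The scaling bears on these sizes. With library size in place of TMM the median of all genes moved from 0.01 to 0.20 on the log2 scale at 6-dpf and from 0.04 to 0.31 at 14-dpf. The direction of the 7 called members at 6-dpf was the same under both scalings, but Atf4, Psat1 and Mthfd2 were then not called (adjusted p = 0.203, 0.228 and 0.0694), nor was Psat1 at 14-dpf (adjusted p = 0.23). With sex left out of the model, 4 of the 8 members were called lower at 14-dpf, Atf4, Psat1, Shmt2 and Mthfd2, beside 18.4% of all genes in that fit.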

How the data were processed

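RNA was sequenced from fracture callus of 30 mice. Per the labels and the study's methods, the authors depleted rRNA and beta globin transcripts, made stranded libraries, aligned read pairs with STAR (mm39) and assigned uniquely mapping pairs to Ensembl v104 genes with featureCounts. The deposited values are raw whole-number counts per gene. Genotype, day and sex came from the labels. Reads were not analysed here.

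Counts were filtered (filterByExpr), scaled by TMM and tested with edgeR 4.0.16 in R 4.3.3 (robust quasi-likelihood F test, Benjamini-Hochberg adjustment over all genes, threshold 0.05), each day on its own with genotype and sex. Changes between days came from models of 4 groups and sex over 3- and 6-dpf or 10- and 14-dpf. A standard error is the absolute log2 fold change divided by the root of its F statistic. Replicates were separate mice. The procedure was tested on simulated data. Alternatives were DESeq2 1.42.0, other scalings, filters and models, and leaving out each mouse. CPM for display used TMM over all 30 libraries, and overlap between groups was read on these values. Counts per library limit precision only for the lowest genes, and otherwise the 3 to 5 mice per group do.

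The members and gene lists were chosen with earlier results of these data known. Named are all members and Apex1 at each day, per list and day at most 3 called genes with the largest changes in each direction, and per member the 3 genes with the nearest profile. A result among the folate genes is not reported here. Symbols, positions and exon lengths came from GENCODE M39 on GRCm39, which holds 54749 of the 55416 IDs. Of 177 listed symbols 1 (Vpreb1, a B cell marker) had no ID. Promoter windows came from RefSeq on GRCm38.p6, and no coordinates were converted between builds. Equal replicate numbers were not taken as pairs, since correlations of deviations from the group means between same-numbered mice ran from -0.251 to 0.392.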

Additional observations from a re-analysis of the deposited data

Results flagged for a closer look

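Among 50 groups of 4 or 5 mice, 4 had a mouse whose gap to its nearest neighbour was a large share of the group's range, where chance gives about 1 in 20 groups. Atf4 was 165 CPM in WT replicate 2 at 10-dpf, below the next mouse at 187 CPM. Slc38a3 was 51.7 CPM in WT replicate 3 at 10-dpf, above the next at 31.6 CPM. Psat1 was 45.1 CPM in WT replicate 1 at 14-dpf, below 47.8 CPM in the next, and Chac1 was 5.84 CPM in WT replicate 3 at 14-dpf, below 7.74 CPM.

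The KO-WT difference itself differed between 3- and 6-dpf, by the interaction in edgeR's quasi-likelihood test, for Atf4 (-0.49 on the log2 scale, adjusted p = 0.0454), Slc38a3 (-3.14, adjusted p = 0.0375) and Trib3 (-2.44, adjusted p = 0.015).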

How the results depend on the processing

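Each result was recomputed with DESeq2, without sex, with DESeq2 size factors or library size alone in edgeR, without a low-count filter or with at least 10 counts in every sample, with all mice in one model, and with the replicate number as a block in place of sex. Mice of equal number share only the number, and not every mouse correlated best with its own. The cause of the moves below was not tested. The 7 members called at 6-dpf became 4 with library size alone and 3 under the replicate block, with 2212 genes called in all becoming 3594 and 677. The 1 member at 10-dpf became 2 with all mice or DESeq2, and the 1221 genes became 2187 with DESeq2 and 750 without sex. The 1 of 8 at 14-dpf became 4 with all mice or without sex, 3 under the replicate block, 2 with DESeq2 or without a filter and 0 with library size alone, and the 2289 genes became 6188 with all mice and 6849 without sex. The 0 genes at 3-dpf became 38 with all mice, 85 with DESeq2, 4 without a filter and 1 under the replicate block. The 3 changed differences from 3- to 6-dpf became 5 with DESeq2 and 1 under the replicate block, the 5 WT changes over that interval 2 under the replicate block, and the 1 from 10- to 14-dpf 2 with library size alone and 0 without sex or under the replicate block. Without single mice, members called ran from 4 to 7 at 6-dpf, 0 to 3 at 10-dpf, 0 to 5 at 14-dpf, 1 to 5 for the changed difference and 0 to 1 for WT from 10- to 14-dpf, and genes from 0 to 10, 890 to 2359, 42 to 1827 and 1206 to 3773 at 3-, 6-, 10- and 14-dpf. The signs that turned all belong to changes that were not called: with library size alone Shmt2 -0.02 and Mthfd2 -0.05 at 3-dpf, Chac1 0.10 at 6-dpf, Phgdh 0.04 and Chac1 0.05 at 10-dpf and Chac1 0.23 at 14-dpf, Mthfd2 0.00 without a filter at 3-dpf, Phgdh at 10-dpf 0.02 without sex and 0.00 under the replicate block, Chac1 0.06 there, and at 14-dpf Asns -0.10, -0.09 and -0.11 and Chac1 0.08, 0.10 and 0.08 with all mice, without sex and under the replicate block, and Chac1 0.00 with the stricter filter. Without single mice Asns ran from -0.06 to 0.25, -0.12 to 0.09 and -0.01 to 0.05 at 3-, 10- and 14-dpf, Chac1 from -0.41 to 0.22, -0.49 to 0.12 and -0.19 to 0.20 at 6-, 10- and 14-dpf, Mthfd2 from -0.08 to 0.10 and Shmt2 from -0.06 to 0.13 at 3-dpf, and Phgdh from -0.11 to 0.16 and Trib3 from -0.70 to 0.08 at 10-dpf. The leave-one-out fits between days were added after seeing the data. The 14-dpf comparison without WT replicate 1, the only WT female of that day, could not be fitted with sex.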
